A study of Drosophila melanogaster with 12 samples.

Results

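The baseline described here was the poly(A) RNA of the wild-type ventral nerve cord of Drosophila melanogaster larvae, read from the 4 samples of the WT group out of 12 samples in the series. The ventral nerve cord is the part of the larval central nervous system behind the brain. The WT larvae were at the wandering stage of the last larval instar, grown at 25C with no treatment. Their label reads wild type, and the design text gives their genotype as the kdm5 140 allele rescued by a gKDM5 transgene, so transcripts of the mutant allele and of the transgene cannot be told apart in the Kdm5 row. The KDM5 protein removes methyl groups from histone H3 and binds chromatin at active promoters. Libraries were made with a TruSeq stranded mRNA kit and sequenced as paired reads of 150 bases. Sex, the number of larvae in a sample, separate cultures and batch are not given in the labels, so the spread between samples may be in part technical.

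The larval nerve cord holds neurons that drive crawling, the neuroblasts that divide to make the neurons of the adult, and several classes of glia. Neuroblasts divide unequally, and the smaller daughter receives the transcription factor Prospero and divides once more into neurons or glia. Motor neurons of the fly use glutamate at the muscle, and most of its central excitatory neurons use acetylcholine. Peptide-releasing cells of the cord send hormones into the blood at molting and metamorphosis. At the wandering stage the steroid ecdysone starts the change towards the pupa.

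The depth was 16670473, 16275094, 16612715 and 16434996 expected counts for WT replicates 1 to 4. In each of them 9097 to 9245 genes reached 10 counts. A count of 3, taken as the floor, was worth 0.178 to 0.188 CPM (counts per 1e+06 counts of the library, whose size was scaled by TMM). The Spearman correlation between pairs of WT samples, across listed genes that are not independent replicates, was 0.975 to 0.982. The chi-square of counts between pairs was 10.1 to 28.4 per degree of freedom, so no pair looked like copies of 1 library. Kdm5 (2L:5989400-5999501, BDGP6.54) had 734, 733, 665 and 736 CPM in WT replicates 1 to 4. Replicate 3 was the lowest, and the level per length of Kdm5 ranked 740 of 14251 listed identifiers.

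Most of the RNA came from genes at moderate levels. Of 14251 listed identifiers, 8568 (60.1%) had at least 1 CPM in all 4 WT samples and count as expressed below. They held 99.9% ± 0.014 of the counts (SD, n = 4). Another 3515 identifiers (24.7%) had 3 or fewer counts in every WT sample and count as near zero, among them 1146 with no count at all. These last are listed because every row of the tables held a count in at least 1 of the 8 samples of its table. By mean level, 104 genes stood above 1000 CPM and took 20.2% ± 0.43 of the counts, and 2264 genes between 100 and 1000 CPM took 59.4% ± 0.28. The 4793 genes between 10 and 100 CPM took 19.5% ± 0.35. The 1650 genes between 1 and 10 CPM took 0.749% ± 0.030, and the 5440 below 1 CPM took 0.0755% ± 0.011.

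The 677 highest genes together reached 50% of the counts, and 3782 reached 90%. A long transcript gives more fragments than a short one, so a second scale divided each count by the deposited gene length and gave it as a share of the sum over all genes, in the manner of TPM (each sample sums to 1e+06). On that length-scaled level, 410 genes reached 50% of the sum. The 100 highest genes by CPM and the 100 highest by length-scaled level shared 47 genes. Their median lengths were 2443 and 740 bases, against 2139 bases over all expressed genes. Ribosomal proteins were 18 of the first set and 65 of the second.

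Obp44a, a member of the odorant-binding protein family of small secreted proteins, was the most abundant gene per length. Its length-scaled level was 16336, 16667, 14061 and 16069 TPM in WT replicates 1 to 4, which is 15783 ± 1174. Replicate 3 was the lowest, and still above every other gene in every sample. By CPM the same gene ranked 7, at 4806 ± 420. Of 34 odorant-binding proteins with a row, 4 were expressed and 22 were near zero. Obp99a had 2009 ± 149 TPM, Obp56i had 67.6 ± 5.14 and Obp99b had 26.0 ± 22.0, so most of the family's RNA came from Obp44a. Obp44a overlaps Pabp2 on the other strand, and how the authors' counting used strand is not given in the sources used here.

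Behind it stood mostly genes of the cytoskeleton and of translation. Ranks 4 and 9 per length were identifiers without a symbol, described below, that are matched to mitochondrial proteins. They had 5929 ± 799 and 4300 ± 829 TPM. Rank 10 was 28SrRNA:CR45844, at 4256 ± 2102 TPM. Act5C, a cytoplasmic actin (X:5900861-5905399), had 7265, 7028, 7404 and 6431 TPM, with replicate 4 lowest. eEF1alpha1, which brings aminoacyl-tRNA to the ribosome, had 5909, 6168, 6266 and 6281 TPM and varied little. RpL41, a ribosomal protein whose listed length is 320 bases, had 5852, 5300, 5280 and 6848 TPM and was highest in replicate 4. It ranked 5 per length and 147 by CPM. RpL41 overlaps NaCP60E on the other strand, so the open point of strand in counting holds for it as for Obp44a.

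The tubulins alphaTub84B and betaTub56D had 5327 ± 141 and 4200 ± 93.7 TPM. The fatty acid binding protein gene fabp had 4932 ± 174, and the small heat shock protein gene Hsp23 had 4677 ± 408. RpS3A, RpL7A, RpS27A and RpS13, all ribosomal proteins, followed at 4005 ± 175, 3705 ± 78.0, 3655 ± 227 and 3573 ± 104 TPM. The ranges of RpL7A, RpS27A and RpS13 overlapped, so their order was not separated from the spread between samples.

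The order by CPM brought up long transcripts. pros, which encodes Prospero (3R:11328480-11407627, listed length 22482 bases), had 5431, 6494, 6226 and 5206 CPM. It was higher in replicates 2 and 3 than in 1 and 4, ranked 5 by CPM and 220 by length-scaled level. eEF2, another elongation factor, had 3756 ± 143 CPM, and eEF1alpha2, a paralog of eEF1alpha1, had 2974 ± 136. The chaperones Hsc70-4 and Hsp83 had 3283 ± 50.9 and 3023 ± 371 CPM.

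**Figure D1:**
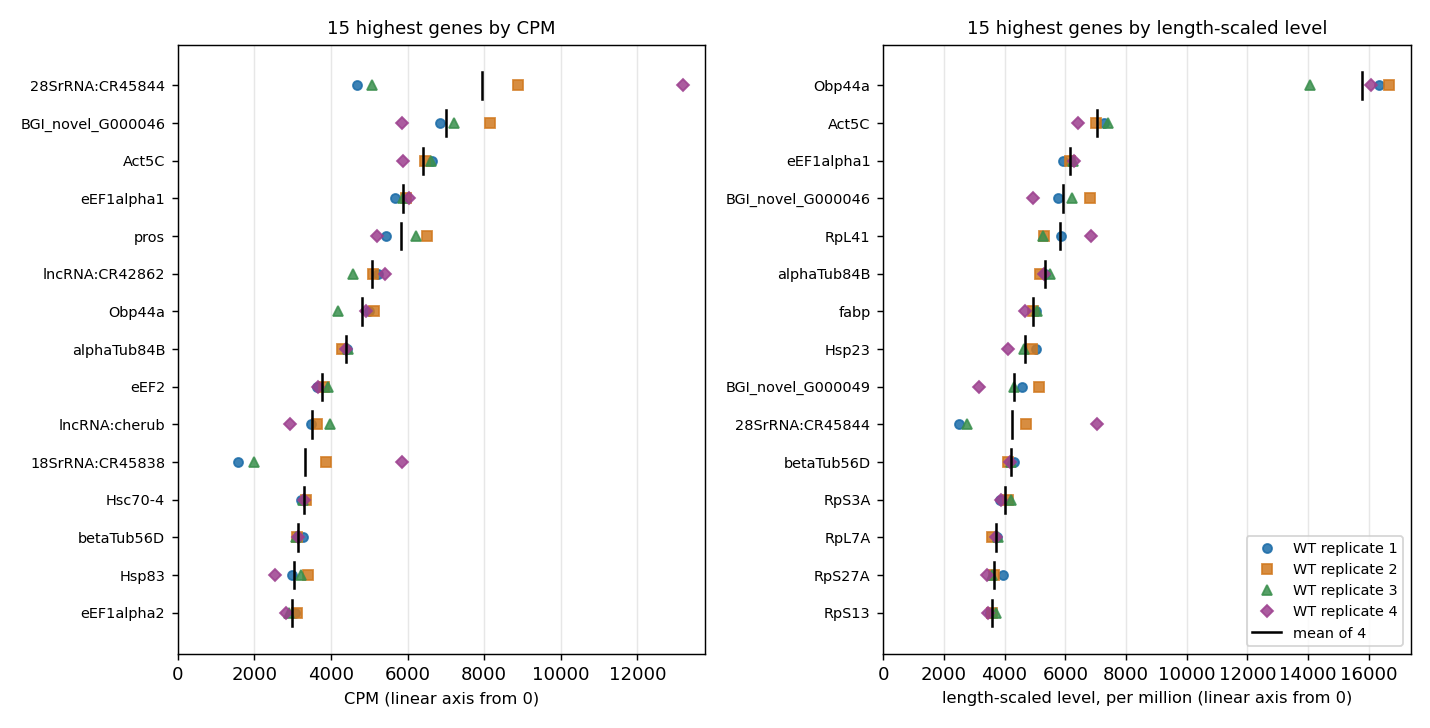
The 15 highest genes of the WT nerve cord by CPM (left) and by length-scaled level in TPM (right), both on linear axes from 0, with 1 marker per WT replicate and a bar at the mean of 4. Obp44a leads the right panel at 15783 TPM, pros appears only on the left, and the ribosomal RNA rows spread widest, with replicate 4 highest.

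Non-coding RNA took a small part of the counts, led by a handful of long transcripts. Protein-coding genes held 95.6% ± 0.58 of the counts, and 8278 of 13986 annotated ones (59.2%) were expressed. Genes annotated as ncRNA held 1.28% ± 0.021, and 141 of 1362 with a row were expressed. lncRNA:CR42862 (3L:224106-230964) had 5221, 5090, 4580 and 5399 CPM and ranked 6 of all genes. It overlaps CG33229 on the same strand. lncRNA:cherub (3R:11247631-11256123), which in fly neuroblasts is inherited unequally at division, had 3477, 3640, 3969 and 2921 CPM. Replicate 3 was highest and replicate 4 lowest, and the gene overlaps no other listed gene.

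hpRNA:CR18854, a hairpin RNA of the kind that gives rise to small interfering RNA, had 856 ± 34.5 CPM. lncRNA:roX1 (X:3857230-3862697), an RNA of the complex that raises X-linked transcription in male flies, had 865, 554, 729 and 793 CPM, lowest in replicate 2. Per length, lncRNA:roX2 had 50.2, 31.1, 43.5 and 48.1 TPM, in the same order of samples. The male-specific roX RNAs were thus present in all 4 samples, while the labels name no sex, and the share of male larvae was not measured. msl-2, the protein that limits assembly of that complex to males, had 43.8 ± 3.60 TPM.

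Ribosomal RNA remained in these poly(A) libraries and set the first place by CPM. The 8 rows annotated as rRNA took 0.771%, 1.43%, 0.856% and 2.26% of the counts of WT replicates 1 to 4, highest in replicate 4. 28SrRNA:CR45844 had 4686, 8879, 5057 and 13191 CPM, so its mean of 7953 ± 3973 CPM rested on replicates 2 and 4. 18SrRNA:CR45838 had 1571, 3874, 1997 and 5862 CPM in the same order. The precursor rows were not highest in replicate 4. pre-rRNA:CR45845 had 216, 301, 213 and 235 CPM, and pre-rRNA:CR45847 had 69.4, 72.9, 141 and 64.5. Copies of the ribosomal RNA genes are near identical, and how reads were divided among them is uncertain.

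The identifier with the second highest CPM carried no symbol. In the authors' deposited table, BGI_novel_G000046 is matched to cytochrome c oxidase subunit I of the mitochondrial genome, and it had 6837, 8146, 7210 and 5854 CPM. BGI_novel_G000049 is matched in the authors' deposited table to cytochrome b, and it had 2677, 3009, 2451 and 1847 CPM. Replicate 4 was lowest in both. The 4 identifiers with a match to a mitochondrial protein took 1.06% ± 0.15 of the counts, and 65 identifiers matched to retroelement proteins in the authors' deposited table took 0.150% ± 0.0074, with 48 of them expressed.

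Ribosomal proteins were the dominant class per length. The 92 cytosolic ribosomal protein genes took 20.2% ± 0.71 of the length-scaled sum and 6.61% ± 0.28 of the counts. Of these, 86 were expressed, with levels from 26.7 to 5820 TPM and a median of 2488, beside a median of 42.2 over all expressed genes. The 6 below that threshold were RpS10a, RpL37-2, RpL22-like, RpL10Aa, RpS19b and RpS28a, all paralogs of a gene that was expressed, with at most 6 counts in any sample. The 73 mitochondrial ribosomal proteins, which serve the separate ribosome of the mitochondrion, were all expressed but took 0.401% ± 0.011 of the length-scaled sum.

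Cytoskeletal genes took 2.56% ± 0.097 of the length-scaled sum, led by Act5C and the tubulins, with tsr, the actin-severing cofilin, at 2646 ± 95.5 TPM. Translation factors took 2.21% ± 0.048. The nuclear-encoded subunits of oxidative phosphorylation took 1.77% ± 0.056 with 65 of 83 expressed, led by ATPsynbeta, a catalytic subunit of ATP synthase, at 1915 ± 91.2 TPM. The proteasome took 1.19% ± 0.034 with 35 of 46 members expressed. The 11 proteasome members near zero, such as Prosalpha6T, Prosbeta2R1 and Rpn12R, carry the names of paralogs of the standard subunits. The vacuolar ATPase, the proton pump that also loads synaptic vesicles, took 0.573% ± 0.0048 with 20 of 32 expressed and 11 near zero. Over all listed identifiers, 60.1% were expressed and 24.7% near zero.

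**Figure D2:**
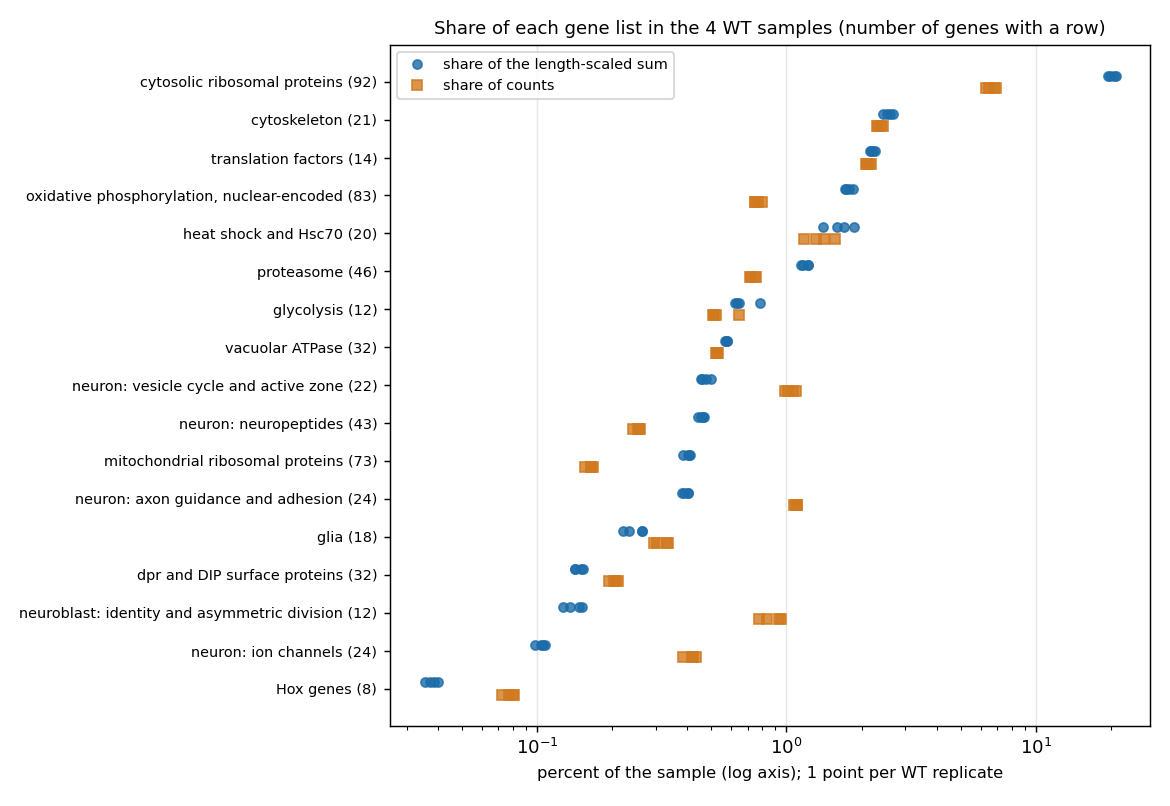
Share of each gene list in the 4 WT samples on a log axis in percent, as share of the length-scaled sum (circles) and as share of counts (squares), with 1 point per WT replicate. Cytosolic ribosomal proteins stand at 20.2% of the length-scaled sum and 6.61% of counts, while lists of long neural genes, such as ion channels, lie lower per length than by counts.

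All 11 pan-neuronal genes were expressed, with elav, the RNA-binding protein that marks postmitotic neurons, at 237, 263, 236 and 204 TPM. cpx (complexin) had 666 ± 47.8, nSyb (the vesicle SNARE) 397 ± 32.3 and Syt1 (the calcium sensor of release) 347 ± 22.5 TPM. The lowest were Syx1A, a membrane SNARE, at 18.8 and Rbp9, an RNA-binding protein, at 7.48 TPM. Replicate 2 was the highest sample for 10 of the 11, where 22.1% of all expressed genes were highest in that sample.

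The 22 genes of the vesicle cycle and active zone were all expressed and took 0.472% ± 0.019 of the length-scaled sum. The 24 ion channels were all expressed at lower levels and took 0.104% ± 0.0042. They were led by stj, a calcium channel subunit, at 89.8 ± 4.04, Ih, a hyperpolarization-activated channel, at 81.9 ± 3.96, and cac, the calcium channel of release sites, at 72.5 to 88.7 TPM.

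Genes of all main transmitters were present. VGlut, which loads glutamate into vesicles, had 221, 217, 199 and 198 TPM. Gad1, which makes GABA, had 142, 131, 156 and 180 TPM, and VGAT, its vesicular transporter, 96.5 ± 1.02. For acetylcholine, ChAT, the synthetic enzyme, had 33.8, 29.6, 28.6 and 35.3 TPM and VAChT, the vesicular transporter, 54.0 ± 2.52. Per length, VGlut was above Gad1 in each sample and Gad1 above ChAT, and these ranges did not overlap. They do not cover uncertainty in the deposited lengths. The order is of single genes, a transporter and enzymes, and does not rank the transmitters. By CPM, the 4 acetylcholine genes summed to 787 ± 25.5, VGlut had 555 ± 37.3 and the 2 GABA genes summed to 344 ± 31.3. In bulk RNA, more cells of a type and more RNA per cell cannot be told apart.

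The 9 monoamine genes were expressed, with Vmat, the shared vesicular transporter, at 101 ± 9.36 TPM. Tbh and Tdc2, which make octopamine and tyramine, had 26.2 ± 2.58 and 13.4 ± 2.46. Trhn, of serotonin synthesis, had 15.3 ± 2.14, and SerT, its transporter, 9.82 to 12.1 TPM, and ple and DAT, of dopamine, had 5.15 and 2.38. Among receptors, 11 of 13 for acetylcholine were expressed, led by nAChRalpha7 at 128 ± 9.85 TPM, while mAChR-C had at most 1 count. Of those for GABA and glutamate, 13 of 14 were expressed, led by GABA-B-R2, a metabotropic GABA receptor, at 143 ± 9.67 TPM. Among chemosensory receptors 5 of 129 were expressed and 99 were near zero, and the 5 stayed low, with Gr61a highest at 7.35 ± 0.97 TPM.

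The highest neuropeptide genes stood above the highest channels and receptors per length. Of 43 with a row, 30 were expressed, and the list took 0.457% ± 0.011 of the length-scaled sum. Nplp1 had 695, 725, 671 and 702 TPM and was above the next gene in every sample. Proc, the precursor of proctolin, had 530, 581, 528 and 574, Lk (leucokinin) 514 ± 28.4, Capa 438 to 531 and Orcokinin 453 ± 13.4 TPM. The ranges from Proc to Orcokinin overlapped between neighbours, and Gpa2, a glycoprotein hormone subunit, lay below them at 265 ± 16.5. The processing enzymes were all expressed, among them svr, a carboxypeptidase, at 268 and Phm, of C-terminal amidation, at 207 TPM.

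The absent neuropeptides included markers of the brain. Eh and SIFa, made by a few brain cells in flies, had 0 counts in all 4 samples. Ilp2 and Ilp3, insulin-like peptides of the brain, had at most 2 and 1 counts, and NPF and Dsk at most 3. At this depth a count of 0 in a single sample still allowed a level of up to 0.188 CPM, for counting error only. A row for Ilp5 was not among those analysed here.

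Among regional genes, abd-A and Antp of the trunk segments led. The Hox genes, which give segments along the body their identity, were expressed in 6 of 8 cases. abd-A had 134, 135, 110 and 143 TPM, and Antp had 92.2 to 118, with overlapping ranges. Ubx followed at 79.6 ± 6.15, Abd-B at 29.6 to 40.2, Scr at 11.5 ± 0.74 and pb at 9.80 ± 0.27 TPM, each apart from its neighbours in range. Dfd and lab, which like pb pattern the head, had 0.897 ± 0.44 and 0.105 ± 0.12 TPM. Of 12 genes of brain regions 5 were expressed, led by ey, a Pax6 transcription factor, at 21.5 ± 2.07 TPM, and 5 were near zero.

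Neuroblast and division genes were present. Of 12 neuroblast genes 11 were expressed, led by pros and by brat, a translational repressor, at 423 ± 56.2 TPM. mira, the adaptor that carries Prospero and Brat into the daughter cell, had 101 ± 5.55, and dpn and wor, neuroblast transcription factors, had 14.0 and 22.1. The temporal factors were all expressed. Syp, of late neuroblasts, had 330, 374, 374 and 277 TPM, while Imp, of early ones, had 59.3, 67.9, 63.0 and 51.1. Both were lowest in replicate 4. All 17 cell cycle genes were expressed, led by PCNA, the sliding clamp of replication, at 118 ± 8.57 TPM. Replicative histones, whose messages mostly end without a poly(A) tail, had 1 of 89 expressed and 42 near zero.

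Motor and interneuron transcription factors, in a list that also holds Vmat, were expressed in 15 of 16 cases. pdm3 had 100 ± 8.51 TPM, zfh1, of motor neurons, 84.4 ± 2.26, and Lim1 55.9 ± 7.19. Their sum was 1308, 1311, 1169 and 1307 CPM, lowest in replicate 3. The same sample was also lowest for the sums of several other neural lists. Vesicle cycle genes summed to 10552, 11128, 9763 and 10153 CPM and ion channels to 4169, 4442, 3806 and 4230 CPM. Replicate 3 was the lowest sample for 15 of 22 vesicle cycle genes, 16 of 24 ion channels and 20 of 32 dpr and DIP genes, where 25.8% of all expressed genes were lowest in that sample. It was not so for every neural list, since the pan-neuronal sum was lowest in replicate 4, at 7419 CPM. All pan-neuronal genes but elav, fne and Rbp9 are also in the vesicle cycle list, so those sums are not independent. Guidance and adhesion genes were all 24 expressed, led by Fas1, a cell adhesion protein of axon bundles, at 698 ± 31.0 TPM. The 32 dpr and DIP genes, surface proteins that bind each other in pairs at synapses, were all expressed. They ranged from dpr7 at 274 ± 30.2 TPM to DIP-alpha at 10.5.

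Glial genes were expressed in 17 of 18 cases. Gs2, which makes glutamine from transmitter glutamate, had 406, 435, 561 and 638 TPM, higher in replicates 3 and 4 without overlap with 1 and 2. alrm, of astrocyte-like glia, had 242, 270, 307 and 319, and Gat, the GABA transporter, 209, 235, 272 and 264 TPM. repo, the transcription factor of nearly all glia, had 129, 112, 122 and 116 TPM and did not share that order. Wrapping and sheath genes varied less, with wrapper at 185 ± 4.78 and Nrx-IV, of septate junctions, at 218 ± 10.8. gcm2, an early glial determinant, was lowest at 0.138 TPM.

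Ecdysone genes were expressed in 13 of 14 cases. br (Broad) had 233 ± 16.4 TPM, ImpE1 222 ± 21.2, Eip75B 219 ± 21.2 and Eip74EF 207 ± 29.3, all early or induced genes of the hormone, and EcR, its receptor, had 128 ± 20.7. Their ranges overlapped from br to Eip74EF. ImpE2, an induced secreted protein, stood out with 28.5, 26.0, 91.6 and 26.5 CPM, raised in replicate 3 alone.

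Markers of other tissues were low but not all absent. The ring gland, which makes ecdysone and adipokinetic hormone, had 0 of 7 genes expressed, and its summed level was 0.790 to 1.67 CPM. Photoreceptor genes had 2 of 12 expressed and summed to 148 to 165 CPM. Among them norpA, a phospholipase C, had 39.9 ± 2.40 TPM, while ninaE, Rh2 and Arr2 had no count. Antimicrobial peptides had 0 of 13 expressed and 11 near zero. Of 15 midgut enzymes on the list 10 had a row, and 1 of these was expressed, with summed levels of 3.20 to 4.01 CPM.

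Muscle, fat body, blood cell, trachea and cuticle genes were counted as well, where 60.1% of all listed identifiers were expressed. Of 17 muscle genes 9 were expressed and the sum was 165, 156, 179 and 228 CPM, with Strn-Mlck at 31.9 to 37.5 TPM and TpnC73F, a troponin C, at 33.1 ± 3.67. Mhc, the muscle myosin heavy chain, had 16, 24, 18 and 214 counts, and Act57B, a muscle actin, 41, 29, 29 and 218 counts. Both were high in replicate 4 alone. Fat body genes were expressed in 6 of 8 cases, mostly through apolpp, a lipid carrier of the blood, at 216 ± 31.2 TPM. Blood cell genes were expressed in 9 of 10 cases, led by crq, a scavenger receptor, at 149 ± 9.52 TPM, with Hml, a blood cell clotting protein, at 1.08. All 6 tracheal genes were expressed, led by serp at 46.2 ± 3.16 TPM. Of 72 cuticle proteins 5 were expressed and 47 near zero, and the list summed to 194, 101, 175 and 134 CPM.

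**Figure D3:**
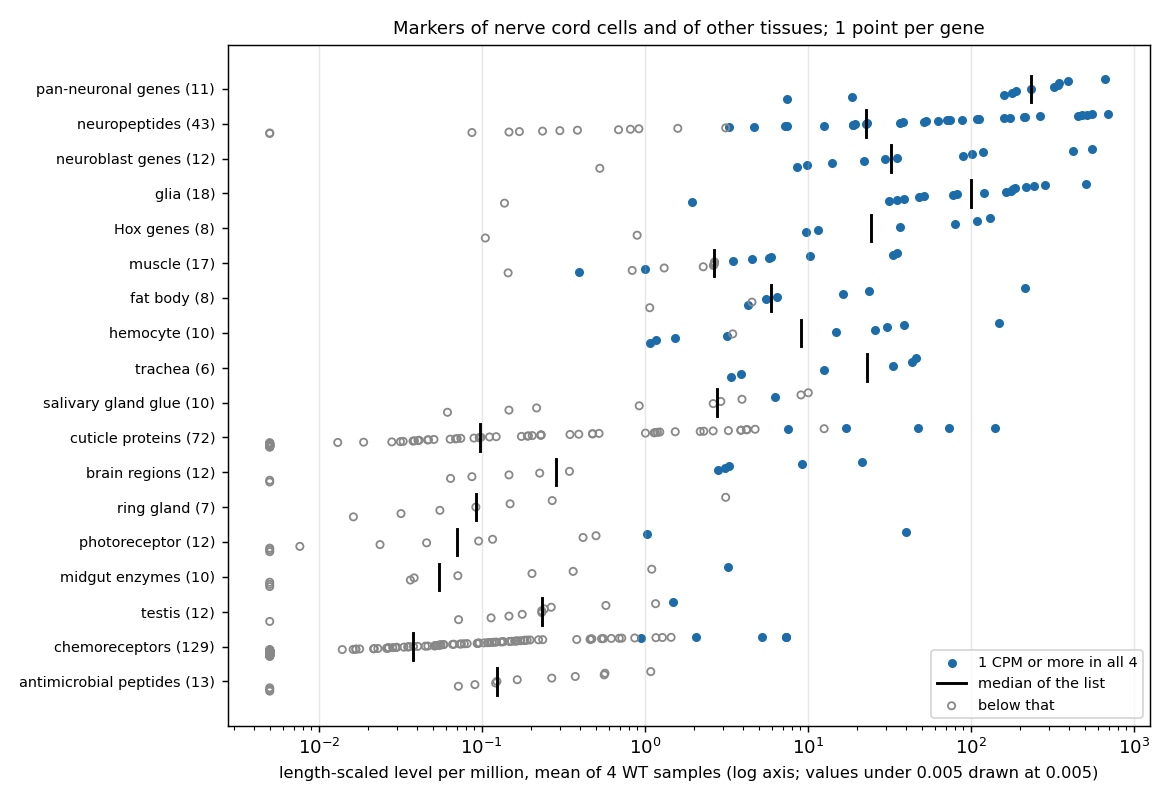
Mean length-scaled level in TPM of each marker gene over 4 WT samples, on a log axis with values below the axis drawn at its left edge. Filled points mark genes with 1 CPM or more in all 4 samples, and bars mark list medians. Pan-neuronal and glial genes lie mostly above 10 TPM, and those of the ring gland, photoreceptors, testis and antimicrobial peptides mostly below 1.

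Genes on chromosome 4, the small and largely heterochromatic chromosome, stood apart from the arms in level. Of 99 listed genes there 82 were expressed, with a median length-scaled level of 137 TPM. For expressed genes the median was 40.4 on the X, 43.2 on 2L, 43.8 on 2R, 42.8 on 3L and 41.6 on 3R. Chromosome 4 held 2.76% ± 0.14 of the counts and RpS3A was its highest member. The X median was the lowest of these per length, but by CPM it was the highest, at 44.8 against 41.3 to 42.8 on the arms. Of 25 genes on the Y, 3 were expressed, and the 2 expressed members of its repeat list were Su(Ste) copies, near-identical RNAs among which reads cannot be placed with certainty.

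Most genes were steady between the 4 WT samples. The biological coefficient of variation (BCV, the spread of a gene beyond counting error) had a median of 0.0521 over expressed genes, and 78.7% of them had 0.1 or less. For 1668 of them the estimate was at the lowest value that edgeR returns. Of 2368 genes with at least 100 CPM, 189 were at that value, and the 5 most abundant of these were Rack1, RpL10, TER94, NaPi-III and tou. Rack1, a scaffold protein on the ribosome, had 1405, 1434, 1405 and 1422 CPM. TER94, an ATPase that unfolds proteins for degradation, had 1208, 1215, 1203 and 1186 CPM.

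A BCV of 0.5 or more at a mean of at least 5 CPM was found for 41 genes, 0.525% of the 7816 genes at that level. They included 6 Hsp70 copies with Hsp68, 3 ribosomal RNAs, 3 larval serum or Fbp1 genes, 3 larval cuticle proteins and 2 7SL RNA copies. Replicate 1 was highest for 11 of them, replicate 2 for 10, replicate 3 for 8 and replicate 4 for 12. Replicates 1 to 4 were the lowest sample for 6, 16, 11 and 8. These are numbers of rows, and the Hsp70, ribosomal RNA and 7SL copies among them are not separate measurements. Without replicate 4 the number was 30, and without any other sample 41 to 45.

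**Figure D4:**
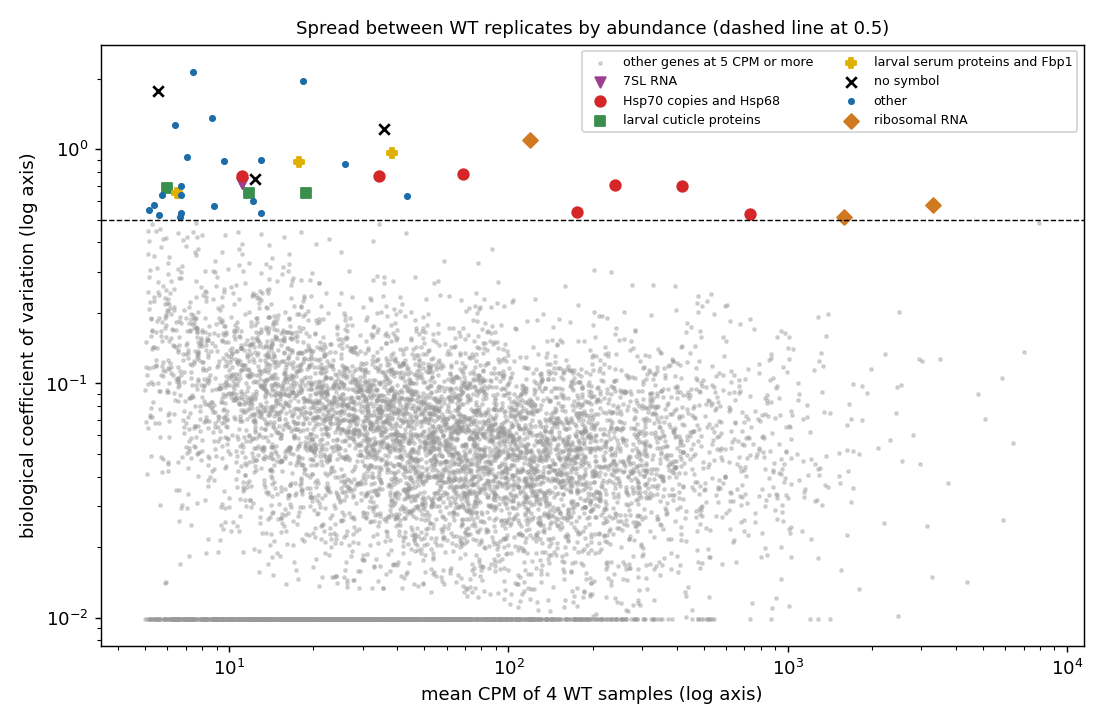
BCV of genes with at least 5 CPM against mean CPM in WT, both on log axes, with the dashed line at 0.5. The 41 genes above the line are marked by class, and the Hsp70 copies and ribosomal RNAs reach above it at levels where other genes lie near 0.05.

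Heat shock genes led that list by number of rows. The Hsp70 genes, chaperones that are induced by stress and low otherwise, summed to 1608, 2855, 768 and 785 CPM in WT replicates 1 to 4, highest in replicate 2 and lowest in 3 and 4. Hsp70Ab had 791, 1285, 454 and 395 CPM and Hsp70Bc 253, 488, 95.9 and 124. The 6 copies are near identical, so their sum is more certain than any copy. Hsp68, a related inducible chaperone, had 172, 320, 93.2 and 116 CPM in the same order of high and low samples. Of 19 heat shock and Hsc70 genes at 5 CPM or more, 8 were variable. Of these, 6 were the Hsp70 copies, which do not count as separate measurements.

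The more abundant chaperones varied less. Hsc70-4, the constitutive member, had 3227, 3348, 3266 and 3292 CPM. Hsp23 had 2096, 2044, 1875 and 1711 CPM, and Hsp83 had 2972, 3388, 3203 and 2529, lowest in replicate 4. Hsc70-1, was among the variable genes with 67, 325, 58 and 396 counts, high in replicates 2 and 4.

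Several proteins known from tissues outside the cord also varied between samples. Fbp1, the fat body receptor for larval serum proteins, had 76.0, 6.34, 15.3 and 55.3 CPM. Lsp2, a larval serum protein that fat body makes for storage, had 26.8, 5.02, 5.52 and 33.6 CPM, and Lsp1gamma 4.89, 4.58, 2.91 and 13.7. Summed over Fbp1 and the larval serum proteins, the level was 114, 22.0, 26.3 and 114 CPM, high in replicates 1 and 4 and low in 2 and 3. The whole fat body list did not follow that order by CPM, with sums of 1033, 1245, 1216 and 1133 that were lowest in replicates 1 and 4. Most of that sum was apolpp, at 874, 1184, 1147 and 978 CPM. Per length the whole list summed to 278, 267, 270 and 298 TPM, highest in replicates 1 and 4.

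The Sgs glue genes of the salivary gland summed to 336, 72, 66 and 181 counts, again higher in replicates 1 and 4 than in 2 and 3. Lcp genes, proteins of the larval cuticle, summed to 1090, 207, 796 and 505 counts, with replicate 2 lowest. Lcp1 had 33.8, 5.90, 19.8 and 15.8 CPM, Lcp2 12.1, 2.07, 5.40 and 4.26, and Lcp4 15.7, 4.02, 19.6 and 7.66. Obp99b had 13.4, 1.57, 2.31 and 10.9 CPM, and yellow-c, of a family known for pigment and cuticle, 24.3, 2.70, 5.34 and 5.96. Whether such tissue came along in dissection was not tested.

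RNA without a coding sequence also varied. 28SrRNA:CR45837, one of the copies, had 16.6, 135, 33.8 and 292 CPM, in the order of samples of 28SrRNA:CR45844 and 18SrRNA:CR45838. 18SrRNA:CR41548 had 1104, 1306, 995 and 2984 CPM. 7SLRNA:CR42652 and 7SLRNA:CR32864, copies of the RNA of the signal recognition particle, had identical rows of 5.67, 7.53, 5.99 and 25.2 CPM, so they carry 1 measurement. Replicate 4 was highest for each of these RNAs.

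Some of the most variable rows varied less when summed with a neighbouring gene. CG32939 (3R:9693079-9694461) had 2, 466, 2 and 3 counts, and CG18542 (3R:9685760-9687141) had 383, 0, 429 and 413, so replicate 2 had its counts on the one gene and the other samples had theirs on its neighbour. Both have the same protein match in the authors' deposited table, and their listed lengths are 1264 and 1263 bases. Their sum was 23.0, 29.2, 25.6 and 25.3 CPM, a coefficient of variation of 10.1% where CG32939 alone had 196%. Likewise the sum of CG32820 and CG32857 varied by 21.6%, and that of CG30059 and CG18278 by 13.1%, where CG32820 alone had 65.1% and CG30059 51.1%. These pairs were picked after their values were seen. Not all neighbours with a shared match did so, since the sum of Hsp70Bbb and Hsp70Bb varied by 73.7% where Hsp70Bbb alone had 74.4%. The split of reads between such genes is uncertain.

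Among the remaining ranked genes, CG13739 had 17.4, 3.07, 14.1 and 0.182 CPM and Grl40a, a gustatory-receptor-like gene, had 10.5, 0.188, 11.9 and 2.98. Replicates 1 and 3 were high and 2 and 4 low in both. CG42353 had 41.6, 4.89, 43.7 and 13.8 CPM. It shares its listed position with CG42354, at 139, 181, 150 and 160 CPM, so the split of reads between them is uncertain. CG11768 had 11.4, 5.65, 8.01 and 1.70 CPM. FASN3, a fatty acid synthase, was high in replicate 3, with 8.83, 9.16, 24.5 and 6.08 CPM.

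Enzymes of glycolysis moved together by a small amount. Their sum was 5064, 5222, 5148 and 6426 CPM, and replicate 4 was the highest sample for all 12 enzymes, where 28.9% of all expressed genes were highest in that sample. Gapdh2 had 1678, 1710, 1920 and 1959 TPM, Eno 926, 975, 960 and 1141, Ald1 744, 765, 743 and 950 and Gapdh1 710, 749, 712 and 973. The sums of muscle genes and of ribosomal RNA were also highest in replicate 4, and their part in the glycolytic values was not tested.

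**Figure D5:**
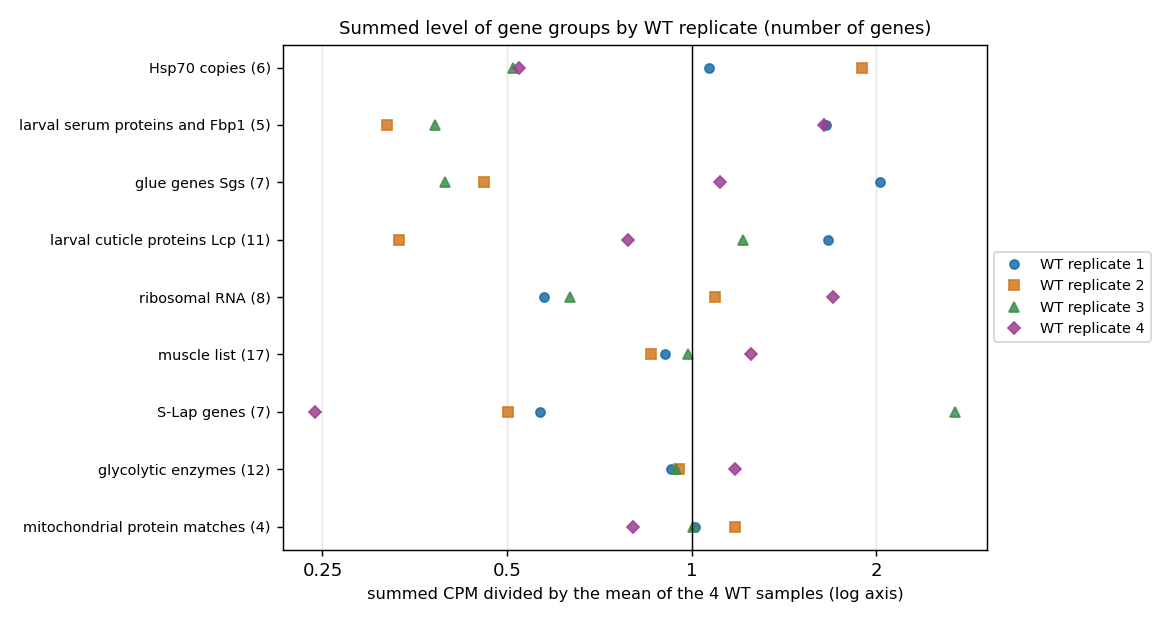
Summed CPM of gene groups in each WT replicate divided by the mean of the 4 samples, on a log axis, with the number of genes in brackets. Hsp70 copies are highest in replicate 2, serum proteins and glue genes in replicates 1 and 4, ribosomal RNA and glycolytic enzymes in replicate 4, and S-Lap genes in replicate 3.

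Replicate 3 held traces of genes that had few or no counts in the other samples. It alone had counts for 755 genes, where replicates 1, 2 and 4 alone had counts for 210, 261 and 279. At least 10 counts there with 3 or fewer in each other sample were found for 61 genes, against 11, 9 and 11 genes for replicates 1, 2 and 4. Of the 61, 31 had 0 counts in replicates 1, 2 and 4. They also held l(1)sc, of the neuroblast list, with 3, 3, 10 and 2 counts. Of the 7 S-Lap genes, leucyl aminopeptidases known from the sperm of the fly, 5 were among the 61, beside 61 of all 14251 listed identifiers. S-Lap4, S-Lap2, S-Lap7, S-Lap3 and S-Lap8 had 28, 26, 23, 16 and 12 counts in replicate 3 and 0 in the others.

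S-Lap1 was counted in every sample, with 36, 28, 73 and 16, and S-Lap5 had 2, 4, 3 and 0 counts, not highest in replicate 3. The 7 S-Lap genes summed to 2.27, 2.01, 10.7 and 0.973 CPM. loopin-1, a related protein of sperm mitochondria, had 36 counts in replicate 3, and ocn and Mst33A, known from the testis, had 14 and 18. These genes were singled out after their values were seen. The 12 genes of the testis list with a row, of 18 named, summed to 3.10, 4.33, 4.15 and 3.47 CPM. Per length they summed to 3.32, 3.84, 8.44 and 3.26 TPM. Replicate 3 was the highest sample per length and not by CPM. Its Mst98Cb and Mst98Ca, known from the testis, had 7 and 6 counts, against at most 1 in any other sample. In all, the 61 genes held 979 counts of that sample's 16612715. Without replicate 3 the number of near-zero genes was 3874 in place of 3515, and the number of variable genes was 41 as before. Leaving out any sample cannot lower the near-zero number, since the rule then covers fewer samples. The range over samples left out in turn is given below.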

How the data were processed

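Expected counts per gene were deposited by the authors as whole numbers, in a pair of tables that hold the same WT columns, per the file headers. Bowtie2 2.2.5, RSEM 1.2.12, DESeq2 and build dm6 are named in the submitters' processing notes. Gene lengths, taken to be in bases, were deposited beside them with no definition. For 40.5% of the identifiers in both tables the lengths differ, and their mean was used. Symbols were matched for 14038 of 14251 identifiers to the gene name table, and positions are 1-based on BDGP6.54, matched by FlyBase identifier.

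CPM used TMM factors of 0.979 to 1.01 (edgeR 4.0.16, R 4.3.3). The length-scaled level is the count per base, scaled to the same fixed sum in each sample. BCV came from edgeR with an intercept only and no shrinkage. The BCV step was tested on simulated data. Values are mean ± SD of 4 samples, intervals and floors cover counting error only, and no test between groups was made. DESeq2 1.42.0 served as an alternative.

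Named genes were Kdm5, the 15 highest on each scale, the 5 highest non-coding genes, at most 2 without a symbol, the 20 highest and 5 lowest by BCV, and in each list the 6 highest and those near zero, or any in lists of 15 or fewer. Ties at the lowest BCV were broken by level. Members and lists were chosen with earlier results of these data known. List members with no row in the tables used were not analysed here and are left out of the numbers given per list. A search of promoters was not run.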

Additional observations from a re-analysis of the deposited data

Results flagged for a closer look

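Among 91 results with 4 values each (the summed lists and the genes named by rank), 9 had 1 sample whose gap to the next was above Dixon's 95% critical value for 4 samples, as a share of the range. Chance flags about 1 in 20 groups that were not chosen for their spread, a rate that does not apply here, since 5 of the 9 are genes named for a high BCV, and the 2 7SL rows among them are identical and carry 1 measurement. Replicate 3 stood low for Kdm5, at 665 CPM, and for the summed identity transcription factors, at 1169 CPM. Replicate 4 stood high for the summed glycolytic enzymes, at 6426 CPM, for 18SrRNA:CR41548, at 2984 CPM, and for 7SLRNA:CR42652 and 7SLRNA:CR32864, both at 25.2 CPM. Replicate 2 stood high for CG32939, at 29.2 CPM, and low for CG18542, at 0 CPM, where the sum of both did not stand apart. Replicate 1 stood high for yellow-c, at 24.3 CPM.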

How the results depend on the processing

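Counts of expressed genes ran from 8232 at 2 CPM to 8895 at 0.5 CPM, against 8568 at 1 CPM. The near-zero number was 1146 with 0 counts in every sample, since that rule is stricter. The 10 highest genes took 5.46% of the counts, 5.15% without identifiers that have no symbol and 6.42% of the length-scaled sum. An alternative chosen after seeing the data, without ribosomal RNA genes, gave 5.06%. Ribosomal proteins took 20.2% per length in place of 6.61%. Variable genes numbered 84 at a mean of 2 CPM or more and 24 at 10 CPM or more, since those filters admit more or fewer genes.

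Leaving out 1 sample in turn gave 8581 to 8616 expressed and 3616 to 3874 near-zero genes. The 10 highest genes then took 5.36% to 5.61% and ribosomal proteins 6.52% to 6.72%. Variable genes numbered 30 to 45, and the median BCV was 0.0422 to 0.0507. Other scalings moved mean CPM of expressed genes by a ratio of 0.991 to 1.01. The lengths of either table alone moved 2 of 94 list shares by more than 1 SD, both of the acetylcholine list, to 0.0280% and 0.0259%. Summing pairs of neighbours was also chosen after seeing the data.

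No paired analysis was possible because WT was the only group used and no test between groups was made. The promoter search was not run, since no promoter sequence was used here. In a single sample, a level under about 0.188 CPM cannot be told from 0 at this depth.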
